A study of Mus musculus with 8 samples.

Results

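The genes described here encode 10 enzymes of serine synthesis and folate-bound one-carbon metabolism in mouse embryonic stem cells. They were taken by name (Phgdh, Psat1, Psph, Shmt1, Shmt2, Mthfd1, Mthfd2, Mthfd1l, Aldh1l2 and Gldc). Each name matched 1 entry, so the set holds 10 of the 49641 gene entries in the deposited table, and all 10 were among the 12786 genes tested. Serine is built from a glycolytic intermediate in a short chain of reactions run by Phgdh, Psat1 and Psph. Shmt1 and Shmt2 then convert serine to glycine and pass its side-chain carbon to tetrahydrofolate. That carbon is oxidised and released as formate in mitochondria, and is used in the cytosol for purines, thymidylate and methyl groups. Mouse embryonic stem cells are known for a high demand on this supply, and for drawing on threonine and glycine breakdown to meet it.

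Each of 4 groups had 2 RNA sequencing libraries. The groups were Dgcr8 knockout cells that received siRNAs to both Mbnl1 and Mbnl2 (siMbnl1/2), Dgcr8 knockout cells transfected with a miR-294 mimic (miR-294), control Dgcr8 knockout cells (Dgcr8 KO) and control wild-type cells (WT). Transfections used 50 nM of mimic or siRNA and began 16 hours after the cells were plated, in medium with serum and LIF. Plates were coated with gelatin or carried irradiated mouse embryonic fibroblasts, without a record of which was used for a given sample. All 8 samples carry the labels V6.5 and 129/C57BL/6, and both treated groups share the Dgcr8 deletion with their Dgcr8 KO controls. The control columns are named as mock transfections, ES1-mock for Dgcr8 KO and V65-mock for WT, so whether these cells share a parental line is not established, and knockout and line cannot be told apart. No control siRNA or control mimic is among the 8 samples. Dgcr8 is needed with Drosha to process primary microRNA transcripts, and miR-294 is one of the miR-290 cluster, the microRNAs that dominate in these cells. Mbnl1 and Mbnl2 are muscleblind-like regulators of splicing.

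The microRNA supplied to the miR-294 group is shown first. Its mature sequence is given from RefSeq (GRCm38.p6, chr7:3220691-3220712, plus strand), with the seed, bases 2 to 8, in capitals.
mmu-miR-294-3p: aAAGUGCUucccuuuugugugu
The DNA letters that pair with this seed are AGCACTT. The longest annotated 3′ UTR of each of the 10 genes in GENCODE M21, from 133 bases in Phgdh to 3129 bases in Aldh1l2, held 0 copies of them. Of the 11568 tested protein-coding genes with such a window, 17.3% held at least 1 copy.

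Promoter windows are printed for Psat1, Shmt2 and Mthfd2, the 3 enzyme genes whose profiles over the 8 libraries lay closest together. Their root mean square differences, on centred log2 values, were 0.067 between Shmt2 and Mthfd2, 0.088 between Psat1 and Mthfd2 and 0.101 between Psat1 and Shmt2. The windows are from RefSeq (GRCm38.p6), run from 250 bases before to 50 bases after an annotated start, and read in the direction of transcription. Capitals mark CCAAT on either strand. The positions are chr19:15925010-15925309 for Psat1, the upstream one of 2 annotated windows, chr10:127522395-127522694 for Shmt2 and chr6:83317555-83317854 for Mthfd2, all on the minus strand. The Psat1 and Mthfd2 windows lie inside the spans given for these genes below, whose 5′ ends are at 15947337 and 83325908. Starts at those ends were not searched.
Psat1: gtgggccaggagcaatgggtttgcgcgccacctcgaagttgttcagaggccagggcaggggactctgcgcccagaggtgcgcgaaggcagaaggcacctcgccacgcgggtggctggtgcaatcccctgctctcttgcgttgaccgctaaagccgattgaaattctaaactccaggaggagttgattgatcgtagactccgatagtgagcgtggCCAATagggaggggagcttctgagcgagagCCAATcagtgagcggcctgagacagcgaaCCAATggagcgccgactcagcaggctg
Shmt2: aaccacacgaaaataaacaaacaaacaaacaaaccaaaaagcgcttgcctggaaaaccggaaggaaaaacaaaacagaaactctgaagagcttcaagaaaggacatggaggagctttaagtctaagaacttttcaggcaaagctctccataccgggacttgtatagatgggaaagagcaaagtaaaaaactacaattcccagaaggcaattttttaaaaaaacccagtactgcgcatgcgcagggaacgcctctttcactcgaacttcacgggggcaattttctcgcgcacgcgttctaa
Mthfd2: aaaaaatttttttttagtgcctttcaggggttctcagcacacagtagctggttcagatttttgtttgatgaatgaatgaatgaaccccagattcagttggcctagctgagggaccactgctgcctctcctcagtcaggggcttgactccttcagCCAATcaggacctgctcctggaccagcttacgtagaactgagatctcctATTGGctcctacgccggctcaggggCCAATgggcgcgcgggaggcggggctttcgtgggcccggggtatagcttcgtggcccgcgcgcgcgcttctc
CCAAT was found in 7 of the 10 windows of the 9 enzyme genes with an entry, against 37.4% of 32851 promoter windows. TGATGNAA, the core of the element to which ATF4 binds, was found in 0 of the 10, against 3.97% of all windows. CACGTG, the E-box of Myc and its partners, was found in 0 of the 10, against 7.15%. In so few windows, 0 hits lie near those shares. Both strands were searched, the 3 motifs share no site in any of these windows, and CCAAT was added after the windows had been read. Aldh1l2 was not matched.

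Levels are in FPKM, which divides fragments by transcript length and by the library's total, and differences are given as means of log2(FPKM + 1), first group minus second, ± SE. Called genes are those with an adjusted p (Benjamini-Hochberg, over all 12786 genes) under 0.05 in limma's two-sided test. Dgcr8 was at 7.90 and 6.58 FPKM in siMbnl1/2, 6.81 and 7.28 in miR-294, 7.89 and 8.50 in Dgcr8 KO, and 22.9 and 21.9 in WT. Of the siRNA targets, Mbnl2 was at 11.2 and 14.3 FPKM in siMbnl1/2, 13.2 and 14.4 in miR-294, 24.7 and 28.6 in Dgcr8 KO, and 12.8 and 12.9 in WT, and it fell in siMbnl1/2 against Dgcr8 KO (-1.01 ± 0.12, adjusted p = 0.0191). Mbnl1 was at 6.84 and 6.76 FPKM in siMbnl1/2, 5.17 and 4.92 in miR-294, 8.0 and 9.42 in Dgcr8 KO, and 4.80 and 5.12 in WT, and its difference between siMbnl1/2 and Dgcr8 KO was not called (-0.31 ± 0.10, adjusted p = 0.158). Mbnl1 was higher in siMbnl1/2 than in miR-294 (0.37 ± 0.10, adjusted p = 0.0165) and WT (0.39 ± 0.10, adjusted p = 0.0113), which received no such siRNA. All 8 stem cell markers were at 1 FPKM or more in every library, while of 12 fibroblast markers, looked at because feeder cells may have been used, only Thy1 and Twist1 were. The fibroblast markers summed to 7.04 to 8.18 FPKM in siMbnl1/2, 7.87 to 8.18 in miR-294, 7.21 to 7.96 in Dgcr8 KO, and 6.74 to 7.17 in WT, with Col1a1 at 0.50 FPKM or less in every library. Thy1 averaged 1.67 FPKM in siMbnl1/2, 3.70 in miR-294, 1.59 in Dgcr8 KO and 2.33 in WT, and rose after miR-294 (0.86 ± 0.13, adjusted p = 0.00134). Twist1 averaged 4.14 FPKM in siMbnl1/2, 2.88 in miR-294, 4.56 in Dgcr8 KO and 2.52 in WT, and fell after miR-294 (-0.52 ± 0.13, adjusted p = 0.0117). The part of feeder cells in the results was not tested. Libraries of a group differed by a median SD of 0.121 in siMbnl1/2, 0.049 in miR-294, 0.102 in Dgcr8 KO and 0.046 in WT on the log2 scale. The number of reads is unknown; the value of a single fragment, read from the lowest FPKM values, puts the other 7 libraries at 77.3% to 94.8% of the depth of WT replicate 2. Whether replicates came from separate cultures is not given, and p-values reflect only how far these libraries vary. A lower level in bulk RNA cannot tell fewer expressing cells from less RNA per cell.

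RNA levels of most of the 10 genes were lower in Dgcr8 KO than in WT cells. For most of them they were higher in miR-294 than in Dgcr8 KO cells. Summed over the set, the level was 433 and 452 FPKM in siMbnl1/2, 916 and 923 in miR-294, 563 and 507 in Dgcr8 KO, and 904 and 886 in WT. Over all gene entries FPKM summed to 510928 and 516085 in siMbnl1/2, 542209 and 549479 in miR-294, 502310 and 473746 in Dgcr8 KO, and 571508 and 564280 in WT. In Dgcr8 KO against WT 9 of 10 genes fell and 1 rose, where 59.8% of all genes tested were called, 30.1% lower and 29.6% higher. After miR-294 8 of 10 rose against Dgcr8 KO and none fell, where 52.2% of genes were called, 22.9% higher and 29.2% lower. At an unadjusted p under 0.05, 9 of 10 passed, beside 7473 of all 12786 genes. After siMbnl1/2 2 of 10 fell against Dgcr8 KO, where 1.11% of genes were called, 0.242% lower and 0.868% higher. Here 8 of 10 passed an unadjusted p under 0.05, Mthfd1 among them with a positive difference, beside 2355 of all 12786 genes. The median difference of the set was -0.69 between Dgcr8 KO and WT, beside 0 for all genes tested, and -0.43 under quantile normalization. It was 0.77 between miR-294 and Dgcr8 KO, beside -0.06 for all genes, and 0.60 under quantile normalization. Between siMbnl1/2 and Dgcr8 KO it was -0.33, beside 0.04 for all genes, and -0.40 under quantile normalization. These comparisons share the Dgcr8 KO libraries, so they are not independent of each other. The 10 genes were chosen with earlier results of these data known. How their counts stand to the shares of all genes is therefore a description only.

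**Figure D1:**
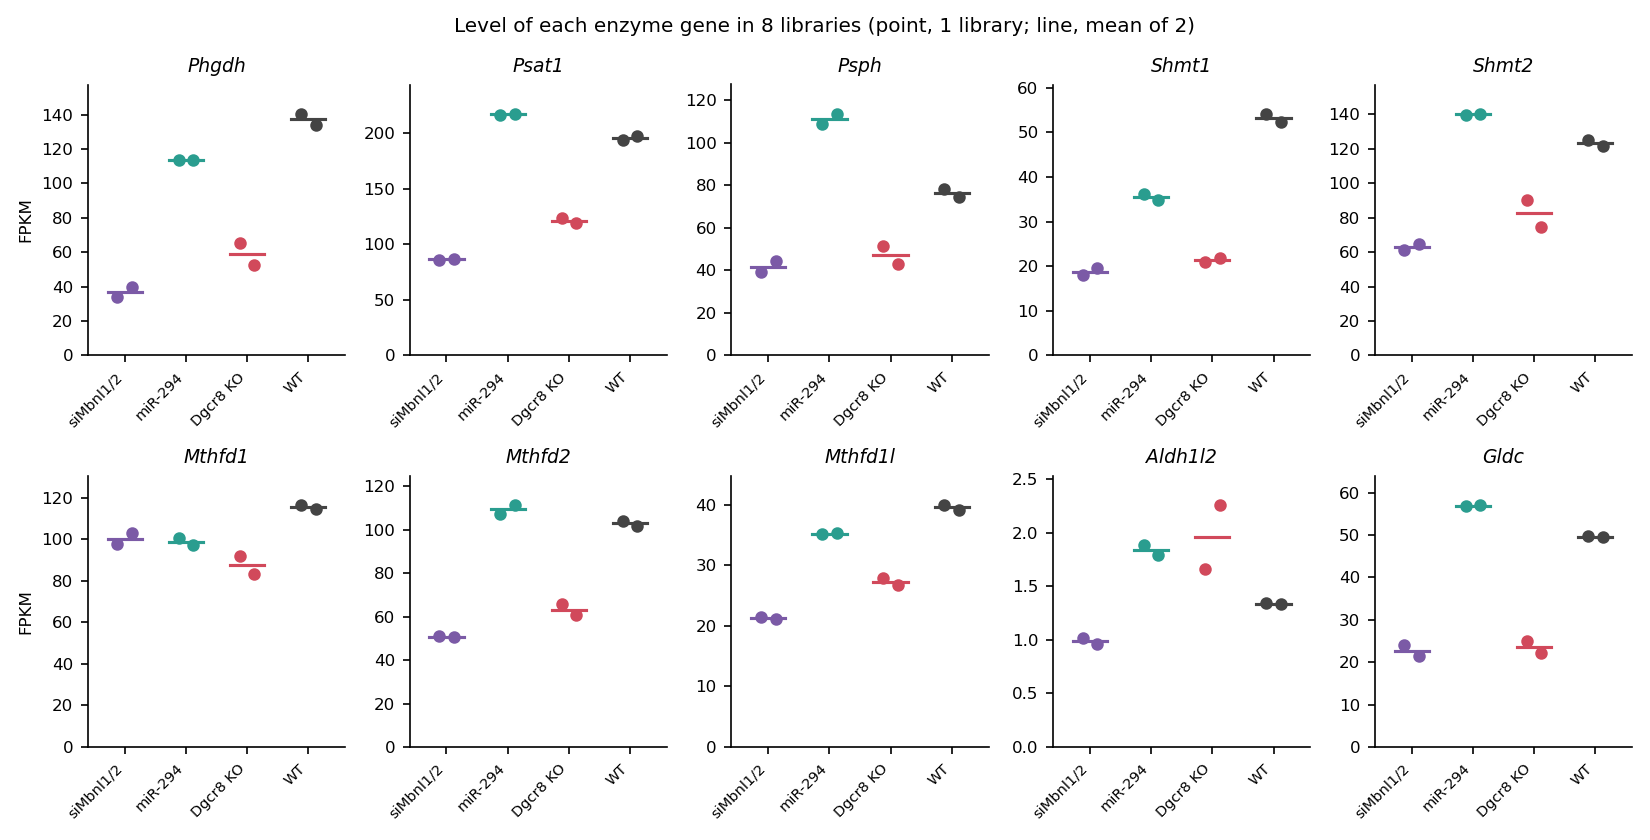
FPKM of each of the 10 enzyme genes (vertical axes, each from 0) in siMbnl1/2, miR-294, Dgcr8 KO and WT cells; points are single libraries and lines the mean of 2. For Phgdh, Psat1, Shmt1, Shmt2, Mthfd2 and Mthfd1l the 4 groups do not overlap and siMbnl1/2 is lowest, while Mthfd1 spans only 83.1 to 117 FPKM. The share of all genes whose 4 groups do not overlap was not counted, so the lack of overlap is a description only.

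Phgdh, Psat1 and Psph catalyse the successive steps of serine synthesis. Phgdh (ENSMUSG00000053398.11; mm10 chromosome 3, 98313170 to 98339990, minus strand), the dehydrogenase that opens the pathway, was at 33.7 and 39.8 FPKM in siMbnl1/2, 114 and 114 in miR-294, 65.1 and 52.8 in Dgcr8 KO, and 141 and 134 in WT. The groups did not overlap, and the order was siMbnl1/2, Dgcr8 KO, miR-294 and WT from low to high. Phgdh fell by 1.21 ± 0.11 in Dgcr8 KO against WT (adjusted p = 8.79e-05) and rose by 0.94 ± 0.11 after miR-294 (adjusted p = 4.52e-04). It fell by a further 0.66 ± 0.11 in siMbnl1/2 against Dgcr8 KO (adjusted p = 0.0470 by limma). This call was lost in limma fits of the compared libraries alone (adjusted p = 0.281) and with libraries weighted by their group's spread (adjusted p = 0.133). The SE of the main fit pools all 4 groups, of which these 2 had the larger spreads. That call was lost without any single library other than siMbnl1/2 replicate 2, with adjusted p-values of 0.0710 without Dgcr8 KO replicate 2, 0.0783 without siMbnl1/2 replicate 1, 0.0820 without Dgcr8 KO replicate 1 and 0.120 without either miR-294 or either WT library. The siMbnl1/2 level was 0.268 times the WT level, the lowest such ratio in the set.

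Psat1 (ENSMUSG00000024640.9; chromosome 19, 15904678 to 15947337, minus strand), the aminotransferase that makes phosphoserine, was the most abundant of the 10 in miR-294, Dgcr8 KO and WT. It was at 86.1 and 86.7 FPKM in siMbnl1/2, 216 and 217 in miR-294, 123 and 119 in Dgcr8 KO, and 194 and 197 in WT. The pairs of libraries lay close together, and no groups overlapped. Psat1 fell by 0.68 ± 0.05 in Dgcr8 KO against WT (adjusted p = 4.32e-05, with -0.38 under quantile normalization) and rose by 0.83 ± 0.05 after miR-294 (adjusted p = 5.16e-05, with 0.59 at the lowest in alternative fits). It fell by 0.48 ± 0.05 in siMbnl1/2 against Dgcr8 KO (adjusted p = 0.0144). This call too was lost in limma fits of the compared libraries alone (adjusted p = 0.244) and with libraries weighted by their group's spread (adjusted p = 0.0553). The call needed Dgcr8 KO replicate 2 (adjusted p = 0.0612 when left out), and it was also lost without either miR-294 library (0.0669 and 0.0668 as adjusted p) and without either WT library (0.0679 and 0.0682 as adjusted p), while the difference itself stayed between -0.51 and -0.48 in those fits.

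Psph (ENSMUSG00000029446.14; chromosome 5, 129765558 to 129787449, minus strand) removes the phosphate in the last step. It was at 39.0 and 44.4 FPKM in siMbnl1/2, 109 and 114 in miR-294, 51.4 and 42.9 in Dgcr8 KO, and 78.4 and 74.6 in WT. The siMbnl1/2 and Dgcr8 KO libraries overlapped, and both miR-294 libraries lay above WT. Psph fell by 0.69 ± 0.10 in Dgcr8 KO against WT (adjusted p = 7.87e-04), rose by 1.23 ± 0.10 after miR-294 (adjusted p = 1.11e-04), and differed by -0.17 ± 0.10 in siMbnl1/2 against Dgcr8 KO (adjusted p = 0.439). Against WT it was higher in miR-294 by 0.53 ± 0.10 (adjusted p = 0.00854), a call lost without miR-294 replicate 2 (adjusted p = 0.0662) or WT replicate 2 (adjusted p = 0.0670). An exon of Psph overlaps one of Cct6a on the opposite strand, and whether counting used strand is not given in the sources used here. Cct6a, a chaperonin subunit, was at 407 and 329 FPKM in siMbnl1/2, 647 and 646 in miR-294, 373 and 382 in Dgcr8 KO, and 578 and 579 in WT. It fell by 0.62 in Dgcr8 KO against WT and rose by 0.78 after miR-294, and its part in the Psph values was not tested.

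Shmt1 and Shmt2 are the cytosolic and mitochondrial forms of serine hydroxymethyltransferase. Shmt1 (ENSMUSG00000020534.14; chromosome 11, 60788104 to 60811718, minus strand) was at 18.0 and 19.6 FPKM in siMbnl1/2, 36.2 and 34.8 in miR-294, 20.9 and 21.8 in Dgcr8 KO, and 54.2 and 52.4 in WT. No groups overlapped, and the miR-294 libraries lay between Dgcr8 KO and WT. Shmt1 showed the largest fall of the set in Dgcr8 KO against WT, by 1.28 ± 0.07 (adjusted p = 1.15e-05). It rose by 0.71 ± 0.07 after miR-294 (adjusted p = 2.34e-04) and remained lower in miR-294 than in WT, the difference being -0.57 ± 0.07 (adjusted p = 0.00158). After siMbnl1/2 the difference from Dgcr8 KO was -0.18 ± 0.07 (adjusted p = 0.252).

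Shmt2 (ENSMUSG00000025403.4; chromosome 10, 127517123 to 127522444, minus strand) was at 61.4 and 64.8 FPKM in siMbnl1/2, 140 and 141 in miR-294, 90.5 and 74.7 in Dgcr8 KO, and 125 and 122 in WT. No groups overlapped, and the Dgcr8 KO libraries differed more than those of the other groups. Shmt2 fell by 0.58 ± 0.09 in Dgcr8 KO against WT (adjusted p = 0.00111, with -0.30 under quantile normalization) and rose by 0.76 ± 0.09 after miR-294 (adjusted p = 4.49e-04, with 0.545 at the lowest in alternative fits). Against Dgcr8 KO, siMbnl1/2 cells differed by -0.38 ± 0.09 (adjusted p = 0.0910), which became a call under median-of-ratios scaling (adjusted p = 0.0431) and quantile normalization (adjusted p = 0.0398). In miR-294 against WT Shmt2 differed by 0.18 ± 0.09 (adjusted p = 0.180). This became a call under median-of-ratios scaling (0.26, adjusted p = 0.0384) and quantile normalization (0.25, adjusted p = 0.0467). It was also called in limma fits with library weights per group (adjusted p = 0.0155) and of the compared libraries alone (adjusted p = 0.0055). Without either Dgcr8 KO library the difference was 0.18. Exons of Smcr8 overlap Shmt1 and exons of Ndufa4l2 overlap Shmt2 on opposite strands; these neighbours averaged 8.34 and 0.928 FPKM over the 8 libraries.

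In mitochondria Mthfd2 oxidises the carbon taken from serine, and Mthfd1l releases it as formate. Mthfd2 (ENSMUSG00000005667.8; chromosome 6, 83305691 to 83325908, minus strand) was at 51.1 and 50.5 FPKM in siMbnl1/2, 107 and 111 in miR-294, 65.6 and 61.0 in Dgcr8 KO, and 104 and 102 in WT. The 4 groups did not overlap, and miR-294 and WT lay next to each other. Mthfd2 fell by 0.69 ± 0.06 in Dgcr8 KO against WT (adjusted p = 7.82e-05, with -0.43 under quantile normalization) and rose by 0.78 ± 0.06 after miR-294 (adjusted p = 9.91e-05, with 0.615 at the lowest in alternative fits). Against WT the miR-294 level differed by 0.09 ± 0.06 (adjusted p = 0.347), which became a call of 0.19 under quantile normalization (adjusted p = 0.0446). Its siMbnl1/2 level differed from Dgcr8 KO by -0.31 ± 0.06 (adjusted p = 0.0619), which became a call under median-of-ratios scaling (adjusted p = 0.0384) and quantile normalization (adjusted p = 0.0295).

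Mthfd1l (ENSMUSG00000040675.17; chromosome 10, 3973118 to 4167081, plus strand) was at 21.4 and 21.1 FPKM in siMbnl1/2, 35.1 and 35.3 in miR-294, 27.8 and 26.7 in Dgcr8 KO, and 40.0 and 39.2 in WT. The groups did not overlap. Its differences were smaller than those of Mthfd2, a fall by 0.52 ± 0.06 in Dgcr8 KO against WT (adjusted p = 2.93e-04) and a rise by 0.36 ± 0.06 after miR-294 (adjusted p = 0.00249). For siMbnl1/2 against Dgcr8 KO the difference was -0.35 ± 0.06 (adjusted p = 0.0523). It became a call with a pseudocount of 0.1, but not of 0.5, with a higher filter and under both other scalings (adjusted p-values down to 0.0325). Without siMbnl1/2 replicate 2 it was -0.34.

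Aldh1l2, the mitochondrial enzyme that burns the folate-bound carbon to carbon dioxide, was by far the least abundant of the set (ENSMUSG00000020256.14; chromosome 10, 83487450 to 83534140, minus strand). It was at 1.02 and 0.96 FPKM in siMbnl1/2, 1.89 and 1.79 in miR-294, 1.66 and 2.26 in Dgcr8 KO, and 1.34 and 1.34 in WT. The Dgcr8 KO libraries enclosed those of miR-294, and siMbnl1/2 was lowest. Aldh1l2 was the 1 gene of the set that rose in Dgcr8 KO against WT, by 0.33 ± 0.12 (adjusted p = 0.0496). The Aldh1l2 call was lost in 12 of 17 alternative fits, among them without Dgcr8 KO replicate 2 (0.18, adjusted p = 0.249), without WT replicate 1 (adjusted p = 0.153) or 2 (adjusted p = 0.157) and without miR-294 replicate 1 or 2 (adjusted p = 0.0806 for each). After miR-294 it differed by -0.053 ± 0.124 against Dgcr8 KO (adjusted p = 0.745), a sign that turned under quantile normalization (0.079) and without Dgcr8 KO replicate 2 (0.094), and after siMbnl1/2 by -0.57 ± 0.12 (adjusted p = 0.0736). It was lower in siMbnl1/2 than in miR-294 (-0.51 ± 0.12, adjusted p = 0.0100), a call lost without miR-294 replicate 1 (adjusted p = 0.0604). An opposite-strand neighbour whose exons overlap Aldh1l2, D10Wsu102e, averaged 0.739 FPKM.

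Mthfd1, the cytosolic enzyme that joins formate to folate and reduces it for use, varied least of the abundant members (ENSMUSG00000021048.6; chromosome 12, 76255232 to 76319820, plus strand). It was at 97.7 and 103 FPKM in siMbnl1/2, 101 and 97.3 in miR-294, 92.0 and 83.1 in Dgcr8 KO, and 117 and 115 in WT. The siMbnl1/2 and miR-294 libraries overlapped, and Dgcr8 KO was lowest. Mthfd1 fell by 0.40 ± 0.07 in Dgcr8 KO against WT (adjusted p = 0.00174), which was -0.13 and no call under quantile normalization (adjusted p = 0.112). After miR-294 it differed by 0.18 ± 0.07 (adjusted p = 0.0650), a call without Dgcr8 KO replicate 1 (adjusted p = 0.0241) and without siMbnl1/2 replicate 1 (adjusted p = 0.0488) or 2 (adjusted p = 0.0484). Under quantile normalization that difference was 0.0055 (adjusted p = 0.950). After siMbnl1/2 it differed by 0.20 ± 0.07 against Dgcr8 KO (adjusted p = 0.193), the 1 positive difference of the set in that comparison.

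Gldc, the decarboxylase that opens the mitochondrial glycine cleavage system (ENSMUSG00000024827.9; chromosome 19, 30098449 to 30175418, minus strand), was at 24.0 and 21.5 FPKM in siMbnl1/2, 56.8 and 57.1 in miR-294, 25.0 and 22.2 in Dgcr8 KO, and 49.8 and 49.6 in WT. The siMbnl1/2 and Dgcr8 KO libraries overlapped, and both lay well below miR-294 and WT. Gldc fell by 1.05 ± 0.08 in Dgcr8 KO against WT (adjusted p = 4.50e-05). Its rise after miR-294, by 1.24 ± 0.08 (adjusted p = 5.88e-05), was the largest of the set. After siMbnl1/2 it differed by -0.049 ± 0.083 against Dgcr8 KO (adjusted p = 0.811), with the sign turning to 0.028 without siMbnl1/2 replicate 2 and 0.032 without Dgcr8 KO replicate 1.

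The treated groups were also set directly against each other and against WT. In siMbnl1/2 against miR-294 9 of 10 genes were lower and none higher, with a median of -1.12, where 54.0% of all genes were called, 21.0% lower and 33.0% higher, around a median of 0.10. The differences of the 9 ran from -0.51 in Aldh1l2 to -1.61 ± 0.11 in Phgdh (adjusted p = 5.41e-05), with -1.40 in Psph, -1.32 in Psat1, -1.29 in Gldc, -1.14 in Shmt2 and -1.09 in Mthfd2. Mthfd1 differed by 0.020 ± 0.069 (adjusted p = 0.828), with -0.075 under median-of-ratios scaling and 0.161 under quantile normalization (adjusted p = 0.0588). This comparison holds 2 transfected groups given the same dose at the same time, but not the same kind of RNA.

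In miR-294 against WT 3 of 10 genes were called, where 26.5% of all genes were, 11.8% higher and 14.7% lower. Psph was higher, and Shmt1 and Mthfd1 were lower, Mthfd1 with a difference of -0.22 ± 0.07 (adjusted p = 0.0488). The Mthfd1 call was lost without any of the 4 libraries compared, with adjusted p-values of 0.165 without miR-294 replicate 1, 0.231 without miR-294 replicate 2, 0.231 without WT replicate 1 and 0.181 without WT replicate 2. The miR-294 level was 1.06 times that of WT for Mthfd2, 1.11 times for Psat1, 1.14 times for Shmt2, 1.15 times for Gldc, 0.827 times for Phgdh and 0.890 times for Mthfd1l, none of them called. For Aldh1l2, at 1.84 FPKM in miR-294 and 1.34 in WT, it was 1.37 times and also not called (adjusted p = 0.136 by limma). The Gldc difference (0.19, adjusted p = 0.123) became a call under median-of-ratios scaling (adjusted p = 0.0465). A difference of Psat1 (0.15, adjusted p = 0.0787) became a call under median-of-ratios scaling (0.22, adjusted p = 0.0187) and quantile normalization (0.22, adjusted p = 0.0207). Psat1 was also called in limma fits of the compared libraries alone (adjusted p = 0.00742). Without either siMbnl1/2 library its difference was 0.15. When each library was weighted by its group's own spread, 9 of 10 genes were called.

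In siMbnl1/2 against WT 9 of 10 genes were lower and none higher, with a median of -0.98, where 60.5% of all genes were called, 27.7% lower and 32.8% higher, around a median of 0.04. Phgdh, at -1.88 ± 0.11 (adjusted p = 1.34e-05), and Shmt1, at -1.46 ± 0.07 (adjusted p = 6.84e-06), differed most. The Mthfd1 call (-0.20 ± 0.07, adjusted p = 0.0345) was lost without any library other than siMbnl1/2 replicate 2 and the Dgcr8 KO libraries, with an adjusted p of 0.102 without siMbnl1/2 replicate 1, 0.0667 without either miR-294 library, 0.157 without WT replicate 1 and 0.118 without WT replicate 2. It turned to 0.040 under quantile normalization (adjusted p = 0.590). Aldh1l2 differed by -0.23 ± 0.12 (adjusted p = 0.138), which became a call of -0.45 under quantile normalization (adjusted p = 0.0189).

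**Figure D2:**
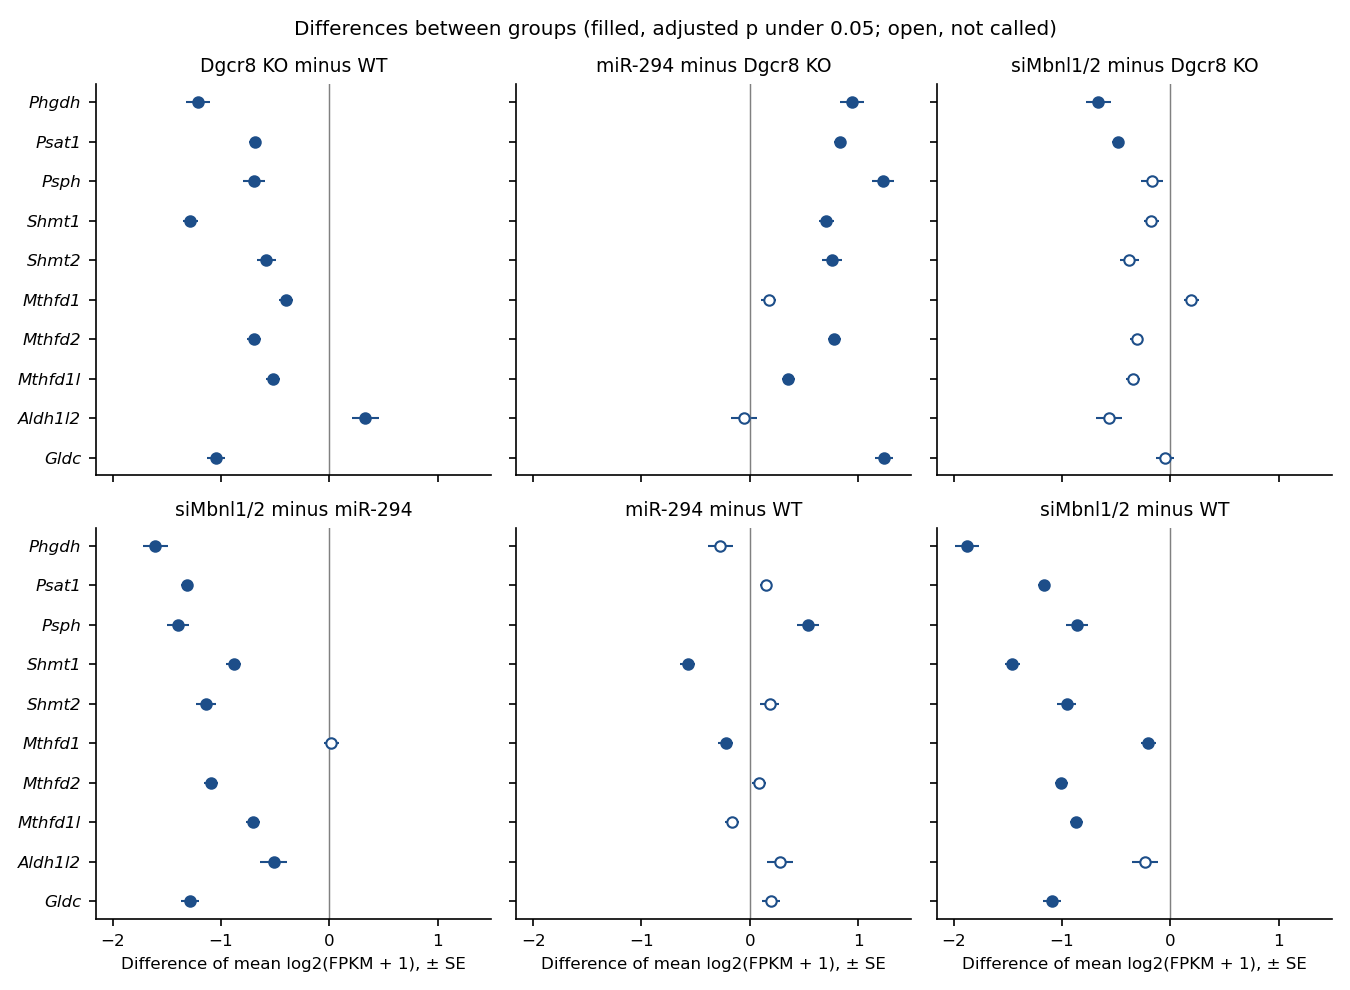
Difference of mean log2(FPKM + 1) ± SE (horizontal axis, the group named first minus the other) for the 10 enzyme genes in 6 comparisons of 2 libraries with 2; filled points are called by limma and open points are not. All but Aldh1l2 lie below 0 for Dgcr8 KO minus WT and above 0 for miR-294 minus Dgcr8 KO, and for siMbnl1/2 minus Dgcr8 KO only Phgdh and Psat1 are called.

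Ratios between genes within a library do not depend on the scaling of that library, and they show that the members did not move in fixed proportion. Shmt2 to Shmt1 stood at 3.41 and 3.30 in siMbnl1/2, 3.86 and 4.04 in miR-294, 4.34 and 3.42 in Dgcr8 KO, and 2.31 and 2.32 in WT. All 6 Dgcr8-deficient libraries thus had more RNA for the mitochondrial form per RNA for the cytosolic form than either WT library. Phgdh to Psph stood at 0.865 and 0.897 in siMbnl1/2, 1.05 and 1.00 in miR-294, 1.27 and 1.23 in Dgcr8 KO, and 1.79 and 1.80 in WT. For this ratio WT was highest, and miR-294 lay below Dgcr8 KO, not between Dgcr8 KO and WT. The part of Cct6a, whose exon overlaps one of Psph, in this ratio was not tested. Mthfd2 to Mthfd1 stood at 0.523 and 0.491 in siMbnl1/2, 1.07 and 1.15 in miR-294, 0.714 and 0.733 in Dgcr8 KO, and 0.894 and 0.888 in WT. This ratio was lowest in siMbnl1/2 and highest in miR-294. The ratios are given as a description and were not tested.

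**Figure D3:**
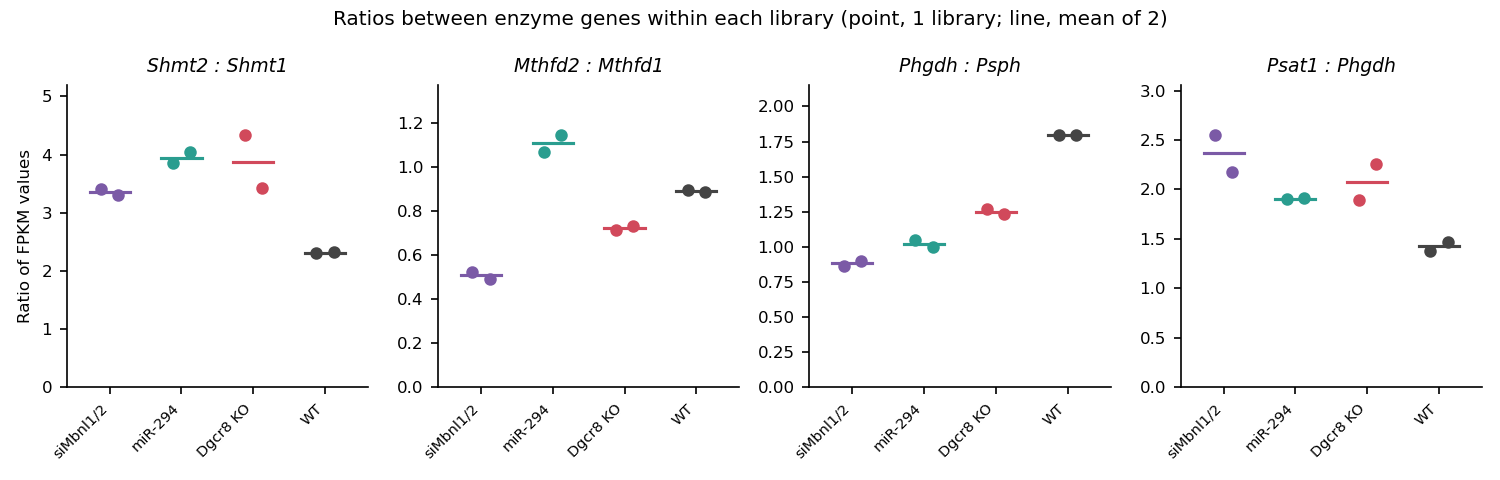
Ratios of FPKM between pairs of the enzyme genes within each library (vertical axes, each from 0), for siMbnl1/2, miR-294, Dgcr8 KO and WT; points are libraries and lines the mean of 2. Shmt2 to Shmt1 and Psat1 to Phgdh are lowest in WT, and Phgdh to Psph is highest there at 1.79 and 1.80.

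As shares of the summed level, Mthfd2 kept nearly the same place in every group, at 11.5% ± 0.430 in siMbnl1/2, 11.9% ± 0.247 in miR-294, 11.8% ± 0.273 in Dgcr8 KO and 11.5% ± 0.0251 in WT (SD, n = 2 libraries). Mthfd1 took 22.6% ± 0.142 in siMbnl1/2, 10.8% ± 0.311 in miR-294, 16.4% ± 0.0613 in Dgcr8 KO and 12.9% ± 0.0317 in WT, its share being largest where the others were low. Ordered by level, Mthfd1 had rank 1 in siMbnl1/2, rank 6 in miR-294, rank 2 in Dgcr8 KO and rank 4 in WT. In the miR-294 libraries neighbours in that order that overlapped were Phgdh and Psph, Psph and Mthfd2, and Shmt1 and Mthfd1l. In Dgcr8 KO the overlapping neighbours were Mthfd1 and Shmt2, and Mthfd2 and Phgdh, and in siMbnl1/2 they were Psph and Phgdh. In WT no neighbours overlapped.

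Lists of related genes are described by their counts, to be read against the shares of all genes called, 30.1% lower and 29.6% higher in Dgcr8 KO against WT, and 29.2% lower and 22.9% higher after miR-294. For siMbnl1/2 against Dgcr8 KO 1.11% of all genes were called, so 0 calls in lists this short lie near that share. There 2355 of all 12786 genes had an unadjusted p under 0.05. The lists too were chosen with earlier results of these data known, so a count above these shares is a description only. Purine synthesis uses the one-carbon units. Of its 8 genes 7 fell in Dgcr8 KO against WT and all 8 rose after miR-294 (medians -0.65 and 0.64). In siMbnl1/2 against Dgcr8 KO limma called 0 of the 8, 0 had an unadjusted p under 0.05, and the median was -0.04, beside -0.33 for the 10 enzymes. Atic and Gart, which take formyl groups from folate, were at 48.7 ± 3.02 and 92.9 ± 7.41 FPKM in siMbnl1/2, 107 ± 0.646 and 179 ± 0.755 in miR-294, 50.9 ± 2.36 and 98.1 ± 7.94 in Dgcr8 KO, and 108 ± 0.336 and 182 ± 3.25 in WT. Atic fell by 1.07 ± 0.07 and Gart by 0.88 ± 0.08 in Dgcr8 KO against WT. Prps2, which makes the phosphoribosyl donor, fell most of the list, by 1.86 ± 0.12 (adjusted p = 2.10e-05), and was at 6.49 ± 0.486 in miR-294, 3.55 ± 0.479 in Dgcr8 KO and 15.5 ± 0.205 in WT.

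Of 13 tested folate carriers and folate-cycle genes (14 in the list), 1 was higher and 6 lower in Dgcr8 KO against WT. After miR-294 4 were higher and 3 lower, shares near those of all genes. For siMbnl1/2 against Dgcr8 KO limma called 0, and 5 had an unadjusted p under 0.05. The folate receptor Folr1 rose by 0.74 ± 0.07 in Dgcr8 KO (207 ± 18.6 FPKM, against 123 ± 1.32 in WT), while the reduced folate carrier Slc19a1 fell by 0.72 ± 0.12 (5.35 ± 0.453, against 9.44 ± 0.651 in WT). Fpgs, which adds the glutamate tail that holds folates in the cell, fell by 0.64 ± 0.12. Of 6 tested genes of glycine cleavage and glycine or threonine use (7 in the list), 1 was higher and 3 lower in Dgcr8 KO, and 2 were higher and 0 lower after miR-294 (2 had an unadjusted p under 0.05). Gcsh, the carrier protein that works with Gldc, fell by 1.63 ± 0.09 in Dgcr8 KO and was at 58.6 ± 0.145 in miR-294, 32.4 ± 0.431 in Dgcr8 KO and 103 ± 0.844 FPKM in WT. Threonine dehydrogenase (Tdh) fell by 0.75 ± 0.10 (91.1 ± 5.76 in Dgcr8 KO, against 154 ± 2.63 in WT), and the glycine transporter Slc6a9 rose by 0.87 ± 0.14. After siMbnl1/2, 0 of these 6 were called against Dgcr8 KO by limma, and 3 had an unadjusted p under 0.05.

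Among 8 tested genes of serine transport and use (10 in the list), 1 was higher and 1 lower in Dgcr8 KO against WT, and 2 were higher and 3 lower after miR-294. They were the sideroflexins Sfxn3, which rose by 1.60 ± 0.12 (7.62 ± 1.24 FPKM in Dgcr8 KO, against 1.83 ± 0.0587 in WT), and Sfxn1, the mitochondrial serine carrier, which fell by 0.91 ± 0.06 (18.3 ± 0.308, against 35.1 ± 0.524 in WT). Serine racemase (Srr) fell by 0.64 ± 0.15 after miR-294. Methionine-cycle and transsulfuration genes split evenly in Dgcr8 KO, 5 higher and 5 lower of 10 tested (13 in the list), and had 3 higher and 3 lower after miR-294. Methionine synthase (Mtr) rose by 0.76 ± 0.07 and Ahcyl2, a relative of adenosylhomocysteine hydrolase, by 0.74 ± 0.10, while Cbs, which opens transsulfuration, fell by 0.67 ± 0.23. Between siMbnl1/2 and Dgcr8 KO limma called 0 genes of either list, and 4 of the serine list and 2 of the methionine list had an unadjusted p under 0.05.

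ATF4, a transcription factor of the amino acid response, is known to drive Phgdh, Psat1, Shmt2 and Mthfd2. Of 11 tested genes of a list of Atf4 and its targets (12 in the list), 6 fell and 0 rose in Dgcr8 KO against WT, and 9 rose and 0 fell after miR-294, with medians of -0.70 and 0.71, where 30.1% of all genes were called lower in the first comparison and 22.9% higher in the second. Atf4 itself was at 125 FPKM in siMbnl1/2, 262 in miR-294, 147 in Dgcr8 KO and 246 in WT. Chac1, which degrades glutathione, rose by 1.69 ± 0.10 after miR-294 (27.9 ± 0.349 FPKM, against 7.96 ± 0.836 in Dgcr8 KO). Eif4ebp1, a brake on translation, fell by 1.01 ± 0.09 in Dgcr8 KO, as did the transcription factor Atf3 (1.01 ± 0.17). Against Dgcr8 KO, siMbnl1/2 gave 0 calls among the 11 by limma, where 1.11% of all genes were called. Unadjusted p was under 0.05 for 6 of the 11, beside 2355 of all 12786 genes. None of these lists was tested as a group.

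**Figure D4:**
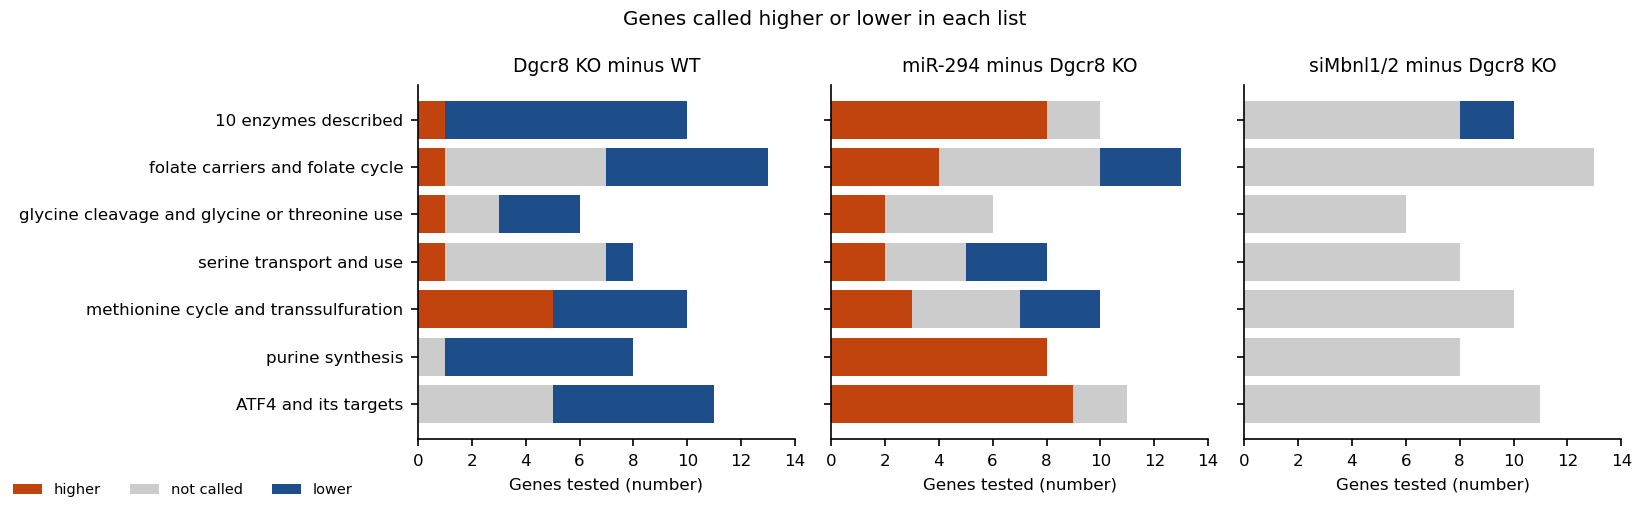
Number of genes tested (horizontal axis) that limma called higher, called lower or did not call, in the set of 10 enzymes and in 6 lists of related genes, in panels for Dgcr8 KO against WT, miR-294 against Dgcr8 KO and siMbnl1/2 against Dgcr8 KO. Purine synthesis has 7 of 8 lower in the first panel and 8 of 8 higher in the second. In the third panel, where 1.11% of all genes were called, the calls are the 2 in the set of 10.

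Genes with the most similar profile were sought for the opening enzymes of 3 branches, by the root mean square difference of centred log2 values over the 8 libraries among 11501 other genes. Closest to Mthfd2 were Zfp518b (0.026), Gprasp2 (0.053) and Atf4 (0.060). Closest to Gldc were Nr5a2 (0.060), Nsun2 (0.075) and Ddx21 (0.079). Phgdh had less close neighbours, Cntfr (0.117), Grb10 (0.146) and Ppp2r5a (0.187). The 8 libraries form only 4 groups, so such a distance mostly compares 4 group means.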

How the data were processed

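FPKM per gene was measured in 8 libraries, 2 in each of 4 groups. Per the submitters' processing notes the authors used STAR 2.5.0, Cufflinks 2.2.1 and mm10; the annotation release is not given in the sources used here. The deposited FPKM values were used as they stand. Coordinates are those of the deposited table, printed 1-based; of 43792 entries whose identifier and version are in GENCODE M21, 99.9% share its coordinates, and Mthfd1 and Gldc differ from that release. Genes with a mean of at least 1 FPKM were fitted on log2(FPKM + 1) by limma 3.58.1 under R 4.3.3 with statmod 1.5.0, with 1 mean for each of 4 groups, a variance trend and robust moderation, two-sided, Benjamini-Hochberg adjusted. On this scale changes of low genes are understated. The fit was tested on simulated data with known changes, drawn for each gene with the same spread in all 4 groups. That test cannot speak to groups that differ in spread, as these did. FPKM carries no information on total RNA. Alternatives were pseudocounts of 0.1 and 0.5, no filter or a minimum of 5 FPKM, median-of-ratios and quantile scaling, a plain variance, library weights per group, the compared libraries alone, a replicate block, and each library left out.

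The members and lists were chosen with earlier results of these data known. Named from each list are the 3 called genes with the largest difference from a control whose groups do not overlap, beside all 10 members, the label check and the 3 nearest profiles for Phgdh, Mthfd2 and Gldc (predicted genes left out).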

Additional observations from a re-analysis of the deposited data

How the results depend on the processing

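The count of called members was the least settled in siMbnl1/2 minus Dgcr8 KO, at 2. It was 5 under median-of-ratios scaling and under quantile normalization, 3 with a pseudocount of 0.1 or a minimum mean of 5 FPKM, and 1 without a filter or with a plain variance. It was 0 with library weights per group, with the compared libraries alone and with the replicate block, and 0 to 3 with a library left out. All genes called there numbered 142, and 61 without a filter, 8 with weights, 4 with the compared libraries alone, 33 with the replicate block and 15 to 650 with a library left out. In miR-294 minus WT, 3 members and 3390 genes were called. There were 5 members under each other scaling, 2 without a filter, with a plain variance and with the replicate block, 9 members with weights or the compared libraries alone, and 1 to 4 with a library left out. All genes called there numbered 6669 with weights, 6311 with the compared libraries alone and 1242 to 4578 with a library left out.

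Called members stayed at 8 to 10 in the other 4 comparisons, whichever setting was used. With a library left out they were 9 to 10 in Dgcr8 KO minus WT, and 8 to 9 in miR-294 minus Dgcr8 KO, siMbnl1/2 minus miR-294 and siMbnl1/2 minus WT. Signs turned in 8 fits of single members, 7 of them of differences that were not called. Mthfd1 in siMbnl1/2 minus miR-294 (0.02) was at -0.075 under median-of-ratios scaling and ran from -0.017 to 0.057 with a library left out. Mthfd1 in siMbnl1/2 minus WT turned to 0.040 under quantile normalization (adjusted p = 0.590). Aldh1l2 in miR-294 minus Dgcr8 KO was at 0.079 under quantile normalization and ran from -0.199 to 0.094 with a library left out. Gldc in siMbnl1/2 minus Dgcr8 KO ran from -0.130 to 0.032 with a library left out. The cause was not tested.

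Genes called higher and lower in siMbnl1/2 minus Dgcr8 KO split as 111 and 31, against 117 and 88 after quantile normalization and 106 and 73 with median-of-ratios scaling. In siMbnl1/2 minus miR-294 the split of 4217 and 2685 became 3131 and 3382 under quantile normalization, with the median of all genes at -0.02 in place of 0.10. In miR-294 minus WT the split of 1508 and 1882 became 2073 and 1476 under median-of-ratios scaling. Same-numbered libraries of different groups did not deviate together in all pairs of groups (correlations over genes from -0.049 to 0.192), so the numbers were not taken to pair samples. Aldh1l2 has no value at a minimum of 5 FPKM, and its low level limits its precision.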
